A study of Mus musculus with 8 samples.

Results

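The genes described here are 33 members of the pathways that make, regulate and move cholesterol and fatty acids, measured in CD4+ T cells from the livers of young mice that lack Aire. They were taken from a list of 35 symbols: each was looked up in a table of read counts for 52997 gene symbols, and a symbol was kept if it had at least 20 counts summed over the 8 libraries. Scd1 (13 counts) and Fads2 (7 counts), both fatty acid desaturases, fell below that minimum. The members fall into 7 genes of the mevalonate pathway, 11 that act from squalene to cholesterol, 5 sterol regulators, 3 genes of sterol transport and 7 of fatty acid synthesis. Abca1, Abcg1 and Stard4 move sterol and do not make it.

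All cells came from C57BL/6 mice that were Aire-deficient and carried a Foxp3 GFP reporter, so no library here has a normal Aire gene. Aire drives the display of self-antigens in the thymus. Live cells of the liver (DAPI negative) that were CD45+, TCRb+, CD4+ and Foxp3 negative were sorted into PD-1- and PD-1+ fractions at 5 or at 10 days of age, and 1000 cells were sorted for each library. PD-1, encoded by Pdcd1, is an inhibitory receptor that T cells display after antigen recognition. Each of the 4 groups (PD-1- and PD-1+ at 5 days, PD-1- and PD-1+ at 10 days) has 2 libraries, numbered 2 and 3 at 5 days and 1 and 2 at 10 days, and paired values below keep that order. Whether different libraries hold cells of different mice is not stated. The 5-day libraries numbered 2 were female and those numbered 3 male by Xist and Y-linked counts, so those numbers held different mice. For the 10-day libraries, all female, this cannot be told. A p-value here therefore speaks only to how much these 8 libraries vary, technical variation included.

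Cells make cholesterol from acetyl-CoA through mevalonate, farnesyl diphosphate, squalene and lanosterol, and make fatty acids from the same acetyl-CoA through malonyl-CoA. Both routes are switched on by the SREBP transcription factors (genes Srebf1 and Srebf2). These are escorted by Scap from the endoplasmic reticulum for cleavage when sterol is scarce and held back by the Insig proteins when it is plentiful. Sterol excess acts in the opposite direction through the LXR receptors, which switch on the exporters Abca1 and Abcg1. Activated T cells are known to turn synthesis up and export down as they grow and divide.

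The libraries held 1473216 to 3019551 counts and 16790 to 20424 detected symbols, and 11490 symbols, all 33 members among them, had enough counts to be tested. Pdcd1 had 1 to 5 counts in PD-1- libraries and 564 to 1953 in PD-1+ libraries. Foxp3 had 10 to 32 counts in PD-1- and 0 to 2 in PD-1+ libraries, and the part of any Foxp3+ cells in the differences of the members was not tested. Aire, which acts in thymic epithelium, had 0 to 2 counts in every library, and its counts in T cells are no check of the deletion. Summed levels of 5 T cell markers (Cd3d, Cd3e, Cd3g, Cd4, Cd28) were 2834 to 3335 CPM (counts divided by TMM-scaled library size and set to a common total) in PD-1- and 2485 to 4435 CPM in PD-1+ cells. Among cells that a liver sort could carry along, 12 hepatocyte markers summed to 11.4 to 21.4 CPM in PD-1- and 33.9 to 79.8 CPM in PD-1+ cells. Fga, Ambp and Vtn were at 0 in every PD-1- library. The 11 macrophage and Kupffer cell markers summed to 3.89 to 64.2 and 37.3 to 47.7 CPM, and 6 B cell markers to at most 79.5 and 52.5 CPM. The 2 CD8 markers summed to 27.5 to 47.6 and 6.18 to 27.4 CPM. Red cell, endothelial and stellate, and neutrophil markers stayed at or below 11.8 CPM in each sum. The 12 dividing-cell markers, Mki67 and Mcm2 among them, summed to 1875 to 3092 CPM in PD-1- and 4198 to 7081 CPM in PD-1+ cells, with 11 of 12 called higher. Both 5-day libraries numbered 3 were male by Xist and Y-linked counts and the other 6 female, so age and sex are partly mixed.

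Over both ages, PD-1+ cells had more RNA of Pmvk, Cyp51, Ebp, Lss and Stard4, which act in or carry the products of cholesterol synthesis. They had less of the exporters Abca1 and Abcg1, of the fatty acid enzymes Elovl6, Fasn and Elovl5, and of Fdps. The calls of Lss and Fdps were lost in 10 and 11 of 15 alternative analyses, and Lss had log2 0.060 ± 0.39 at 10 days. With 4 libraries a side, 5 members were higher and 6 lower at a Benjamini-Hochberg adjusted p below 0.05 in edgeR's quasi-likelihood test, and 22 were not called. That is 33.3% of the members, where 41.4% of all 11490 tested genes were called, 21.9% higher and 19.6% lower. The members' median log2 fold change was 0.11, against -0.012 over all tested genes, and their median absolute log2 fold change was 0.47 against 0.58. The share called was thus near that of other genes. Steps were not tested against each other, and a step not called is not shown to be equal. Hsd17b7, not called, had log2 0.86 ± 0.50, beside 0.86 ± 0.33 for Lss, which was called. In bulk RNA, fewer cells that use a gene and less RNA per cell cannot be told apart. The hepatocyte and dividing-cell marker sums were higher in PD-1+ cells in every library, and their part in the differences of the members was not tested.

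**Figure D1:**
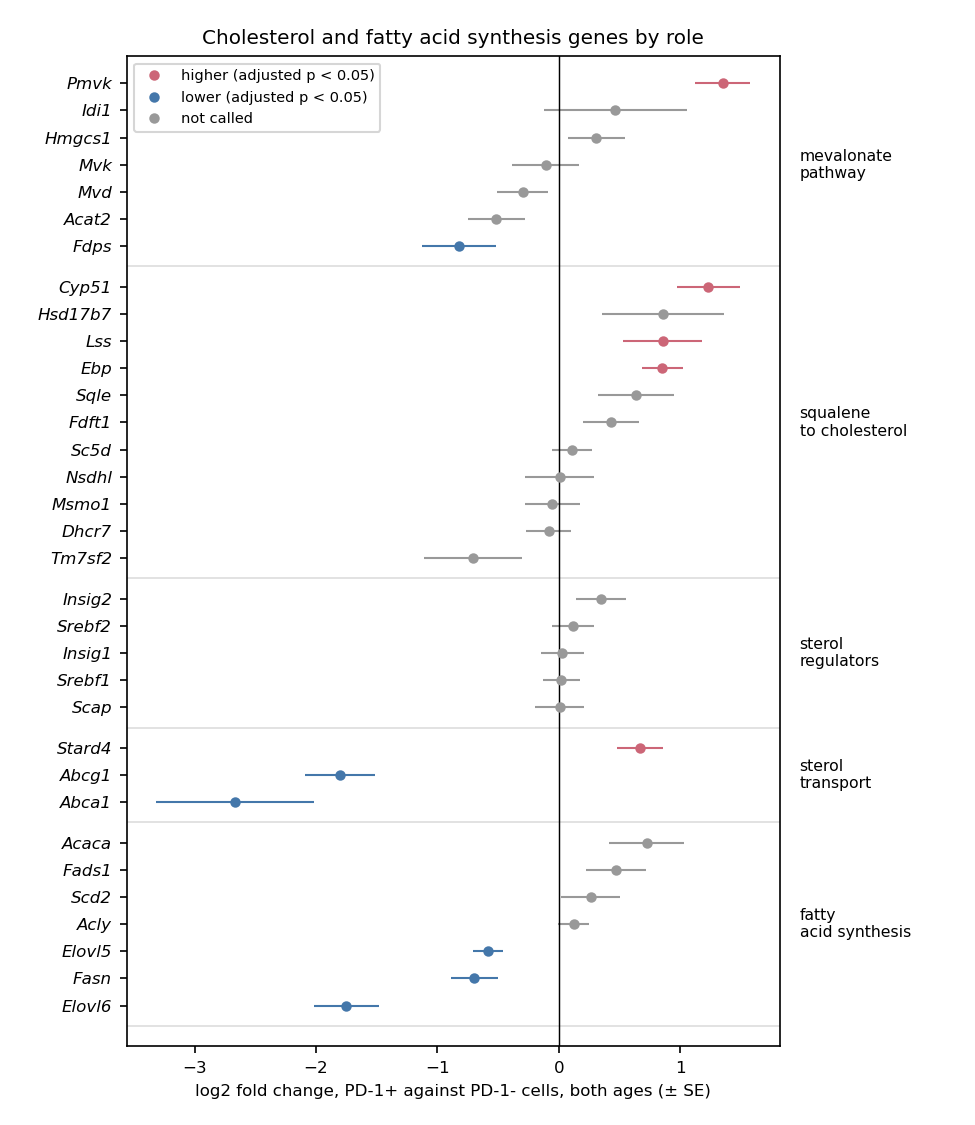
Log2 fold change (± standard error, horizontal axis) of each of the 33 genes in PD-1+ against PD-1- cells over both ages, in rows grouped by role, from 8 libraries. Red and blue points passed an adjusted p of 0.05: 5 lie to the right of 0 and 6 to the left, and the 5 sterol regulators sit between 0.0068 and 0.35.

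Pmvk, Cyp51, Ebp and Stard4 had higher CPM in each of the 4 PD-1+ libraries than in any PD-1- library, as did Insig2, which was not called. Abcg1 and Elovl6 were lower in each PD-1+ library than in any PD-1- library. Those 7 of 33 members compare with 34.8% of all tested genes whose libraries did not overlap in either direction.

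The sequences around the starts of these genes were searched for elements through which the pathway is commonly controlled, and a few are shown to make them visible. SREBP proteins bind the sterol regulatory element, searched here as TCACNCCAC, beside boxes for NF-Y (CCAAT) and Sp1 (GGGCGG), and they can also bind the E-box CACGTG. Windows from 250 bases before to 50 after the start of transcription were taken from RefSeq on GRCm38.p6 and searched on both strands, and 26 of the 33 members had one. Fdps, Fdft1, Sqle, Stard4, Abcg1, Scd2 and Fads1 had none. A CCAAT box lay in the windows of 21 of 26 members (80.8%), against 41.1% of all genes with a window and 43.4% of the tested ones. The GC box was in 21 (80.8%, against 38.2% and 69.2%) and the E-box in 7 (26.9%, against 8.09% and 12.2%). TCACNCCAC was in the window of 1 member, Hmgcs1 (3.85%, against 1.44% and 1.42%), and a shorter form, CACNCCAC, which lies within the longer one, was in 3, namely Acat2, Hmgcs1 and Insig1 (11.5%, against 7.12% and 7.68%). Of the called members with a window, all 4 higher ones (Pmvk, Lss, Cyp51 and Ebp) and 2 of the 4 lower ones (Fasn and Elovl5) held a CCAAT box, as did 15 of the 18 that were not called. Abca1 and Elovl6 were the lower ones without it. These are matches of letters in a window, and nothing was measured on binding.

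The stretches below run 5′ to 3′ on the strand of the gene, and their genes were chosen after the values were seen. Hmgcs1 is shown for the sterol element, which starts at -137 and is in capitals (chr13:119690201-119690350, + strand). In the others the capitals mark CCAAT or its reverse complement ATTGG. Pmvk (chr3:89454391-89454540, + strand), Ebp (chrX:8193513-8193662, - strand) and Lss (chr10:76531438-76531587, + strand) were higher in PD-1+ cells, while Fasn (chr11:120824548-120824697, - strand) and Elovl5 (chr9:77917214-77917363, + strand) were lower.
Hmgcs1: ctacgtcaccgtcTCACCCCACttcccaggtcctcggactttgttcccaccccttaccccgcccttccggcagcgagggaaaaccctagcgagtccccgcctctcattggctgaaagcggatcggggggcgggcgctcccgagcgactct
Pmvk: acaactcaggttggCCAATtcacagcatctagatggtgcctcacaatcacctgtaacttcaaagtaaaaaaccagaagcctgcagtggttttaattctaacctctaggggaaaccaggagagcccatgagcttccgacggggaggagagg
Ebp: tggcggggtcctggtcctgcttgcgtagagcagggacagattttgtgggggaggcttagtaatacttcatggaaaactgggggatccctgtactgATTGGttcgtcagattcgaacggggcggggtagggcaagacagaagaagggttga
Lss: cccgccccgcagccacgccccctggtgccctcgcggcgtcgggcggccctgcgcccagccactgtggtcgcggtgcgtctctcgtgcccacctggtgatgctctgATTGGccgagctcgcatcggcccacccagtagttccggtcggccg
Fasn: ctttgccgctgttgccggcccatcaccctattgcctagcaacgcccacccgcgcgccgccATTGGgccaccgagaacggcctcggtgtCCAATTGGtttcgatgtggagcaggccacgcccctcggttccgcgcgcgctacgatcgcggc
Elovl5: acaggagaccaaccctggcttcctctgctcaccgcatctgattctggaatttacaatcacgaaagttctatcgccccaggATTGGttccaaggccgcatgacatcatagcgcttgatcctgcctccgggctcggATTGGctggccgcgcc
Pmvk, Ebp and Lss hold 1 box each in the stretch shown, Elovl5 holds 2, and Fasn holds 3, of which a pair on opposite strands overlap as CCAATTGG. Genes of both directions thus carry the box within a short distance of the start.

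In the mevalonate pathway, which ends in farnesyl diphosphate, 1 of 7 genes was higher and 1 lower (28.6%, beside 41.4% of all genes). Pmvk (chr3:89454541-89469013, + strand), the phosphomevalonate kinase, was at 12.6 and 16.5 CPM in the PD-1- libraries and 39.6 and 30.6 CPM in the PD-1+ libraries of 5-day mice, and at 14.2 and 15.0 CPM (PD-1-) and 43.5 and 34.4 CPM (PD-1+) in 10-day mice. The PD-1+ libraries were all above the PD-1- ones, and within each population the ages overlapped. Over both ages Pmvk was 2.55-fold higher in PD-1+ cells (log2 1.35 ± 0.23, edgeR adjusted p = 2.60e-04). It was called at each age as well, with log2 1.29 ± 0.33 at 5 days (edgeR adjusted p = 0.00593) and 1.42 ± 0.32 at 10 days (edgeR adjusted p = 0.00295).

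Fdps (chr3:89093588-89101959, - strand), the synthase of farnesyl diphosphate, ran the other way. It was at 18.8 and 12.5 CPM in the PD-1- libraries and 8.75 and 10.5 CPM in the PD-1+ libraries of 5-day mice, and at 18.8 and 18.9 CPM (PD-1-) and 12.8 and 7.03 CPM (PD-1+) in 10-day mice. Within each age both PD-1+ libraries lay below both PD-1- libraries, but across ages the populations overlapped. The difference over both ages was a fold of 1.77 (log2 -0.82 ± 0.30, edgeR adjusted p = 0.0416). This call was lost in 11 of 15 alternative analyses, the DESeq2 test and the removal of any single library but 5-day PD-1- replicate 3 and 10-day PD-1+ replicate 1 among them, with adjusted p between 0.026 and 0.138. Fdps also shares 1124 exon bases with a gene model, Gm43738, that had 0 counts.

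Hmgcs1, which condenses acetyl-CoA units into HMG-CoA and carries the sterol element shown above, was at 53.8 and 75.5 CPM in the PD-1- libraries and 117 and 115 CPM in the PD-1+ libraries of 5-day mice. At 10 days it was at 107 and 72.8 CPM in PD-1- and 91.2 and 64.7 CPM in PD-1+ cells, and the populations overlapped. It was called higher at 5 days (log2 0.86 ± 0.24, edgeR adjusted p = 0.0128) and not at 10 days (log2 -0.22 ± 0.24). The difference between the ages was log2 -1.08 ± 0.34 with an edgeR adjusted p of 0.121, above the threshold in this fit. Without 5-day PD-1- replicate 2 or PD-1+ replicate 2, the 5-day call was lost.

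The remaining 4 genes of this stretch were not called over both ages. Acat2, which joins acetyl-CoA units, had log2 -0.51 ± 0.24, Mvk, the mevalonate kinase, -0.11 ± 0.27, and Mvd, the decarboxylase, -0.30 ± 0.21. Idi1, the isomerase, was sparse at 0.568 to 7.64 CPM and had log2 0.47 ± 0.59. Of this route, then, the Pmvk and Fdps steps were called, in opposite directions, and the steps between them were not.

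From squalene to cholesterol, 3 of 11 genes were higher in PD-1+ cells and 0 lower (0 lower by edgeR, by DESeq2 and at an unadjusted edgeR p below 0.05). That is 27.3% of them, where 41.4% of all genes were called, 21.9% higher and 19.6% lower. Cyp51 (chr5:4081145-4104746, - strand), the lanosterol demethylase, was at 38.9 and 42.0 CPM in the PD-1- libraries and 70.0 and 117 CPM in the PD-1+ libraries of 5-day mice, and at 38.9 and 15.0 CPM (PD-1-) and 78.0 and 56.2 CPM (PD-1+) in 10-day mice. All PD-1+ libraries lay above all PD-1- libraries. Over both ages the fold was 2.35 (log2 1.23 ± 0.26, edgeR adjusted p = 0.00188). Cyp51 shares 166 exon bases with Akap9 on the opposite strand, which had 2116 counts, and how strand entered the read counting is not given in the sources used here. Without strand, reads of such partners cannot be told apart.

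Ebp (chrX:8185329-8193512, - strand), a sterol isomerase further along the route, was at 66.4 and 73.2 CPM in the PD-1- libraries and 110.1 and 112 CPM in the PD-1+ libraries of 5-day mice, and at 55.1 and 53.3 CPM (PD-1-) and 134 and 89.3 CPM (PD-1+) in 10-day mice. Again no PD-1+ library fell among the PD-1- ones. The fold was 1.81 over both ages (log2 0.85 ± 0.17, edgeR adjusted p = 8.72e-04). At 5 days it was log2 0.67 ± 0.22 and at 10 days 1.04 ± 0.22, both called (edgeR adjusted p = 0.0232 and 0.0017). Ebp lies on the X chromosome, and replicate 3, the male library at 5 days, had nearly the value of the female replicate 2 in both populations.

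Lss (chr10:76531588-76557138, + strand), which closes squalene epoxide into lanosterol, differed at 5 days. It was at 16.2 and 19.9 CPM in the PD-1- libraries and 66.9 and 36.3 CPM in the PD-1+ libraries of 5-day mice, and at 11.3 and 15.0 CPM (PD-1-) and 12.1 and 14.8 CPM (PD-1+) in 10-day mice. The 5-day PD-1+ libraries stood above the other 6. Of those, the 5-day PD-1- libraries lay above all 10-day libraries, whose populations overlapped. At 5 days the fold was 2.88 (log2 1.52 ± 0.35, edgeR adjusted p = 0.00327), and at 10 days the log2 fold change was 0.060 ± 0.39. The difference between ages, log2 -1.46 ± 0.52, had an edgeR adjusted p of 0.172. Over both ages Lss was called (log2 0.86 ± 0.33, edgeR adjusted p = 0.0486), but in 10 of 15 alternative analyses it was not, with adjusted p up to 0.231. Removal of any single library but 10-day PD-1- replicate 2 and 10-day PD-1+ replicate 1 was enough. An antisense gene model that overlaps 381 exon bases of Lss had 1 count in all libraries.

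The other 8 genes of the squalene to cholesterol stretch had log2 fold changes from -0.70 to 0.86 and were not called. Sqle, the squalene epoxidase often named as a rate-limiting step, was at 21.1 and 23.3 CPM in the PD-1- libraries and 38.1 and 38.7 CPM in the PD-1+ libraries of 5-day mice, and at 17.5 and 7.15 CPM (PD-1-) and 25.6 and 10.2 CPM (PD-1+) in 10-day mice. Its PD-1+ libraries were above the PD-1- ones at 5 days and overlapped them at 10 days (log2 0.64 ± 0.31 over both ages, edgeR adjusted p = 0.116). Fdft1, the squalene synthase, had log2 0.43 ± 0.23 and shares 774 exon bases with Ctsb, which had 11792 counts. Hsd17b7, a sterol ketoreductase, had log2 0.86 ± 0.50, with 42 and 2 counts in the 5-day PD-1- libraries. Tm7sf2, a sterol reductase that shares 532 exon bases with Vps51, had log2 -0.70 ± 0.40. Msmo1, the methyl oxidase, had -0.053 ± 0.23, Nsdhl, the decarboxylase on the X chromosome, 0.0094 ± 0.29, Sc5d, the desaturase, 0.11 ± 0.17, and Dhcr7, a final reductase, -0.084 ± 0.18.

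None of the 5 sterol regulators was called in PD-1+ against PD-1- cells over both ages (0 with edgeR, 0 with DESeq2, 0 at an unadjusted p below 0.05). Of all genes 41.4% were called there. Srebf1 ran from 76.1 to 122 CPM in PD-1- and 83.4 to 108 CPM in PD-1+ cells, and Srebf2 from 87.8 to 119 and 74.9 to 131 CPM. The log2 fold changes were 0.021 ± 0.15 for Srebf1, 0.12 ± 0.17 for Srebf2 and 0.0068 ± 0.20 for the escort Scap. Insig1, itself a target of SREBP, was at 51.4 to 78.7 CPM in PD-1- and 53.5 to 78.7 CPM in PD-1+ cells (log2 0.030 ± 0.18). Insig2 was at 25.4 to 31.1 and 31.5 to 43.5 CPM, which did not overlap, yet its log2 of 0.35 ± 0.21 did not pass the test. Under upper-quartile scaling Srebf1, Scap and Insig1 turned to slightly negative values. Levels of RNA say nothing of how much SREBP was cleaved, which is the step at which these proteins act. Standard errors of 0.15 to 0.21 leave room for differences of that size.

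Sterol transport held Abca1 and Abcg1, the members with the largest fitted log2 fold changes over both ages. Abcg1 (chr17:31057675-31117988, + strand), which passes cholesterol to lipoproteins, was at 175 and 156 CPM in the PD-1- libraries and 24.2 and 27.7 CPM in the PD-1+ libraries of 5-day mice, and at 224 and 213 CPM (PD-1-) and 109 and 98.7 CPM (PD-1+) in 10-day mice. The populations did not overlap at either age, and the 10-day PD-1+ libraries lay between the 5-day PD-1+ ones and all PD-1- libraries. Over both ages Abcg1 was 3.48-fold lower in PD-1+ cells (log2 -1.80 ± 0.29, edgeR adjusted p = 7.74e-04).

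Abca1 (chr4:53030787-53159895, - strand), which passes cholesterol and phospholipid to apolipoprotein, was sparse. The 5-day libraries had 17 and 2 counts (PD-1-) and 0 and 1 counts (PD-1+), and the 10-day libraries 33 and 18 counts (PD-1-) and 6 and 6 counts (PD-1+). At each age both PD-1- libraries had more counts than the PD-1+ ones, and across ages the values overlapped. Pooled counts gave a level in PD-1- cells 15.8 times that in PD-1+ cells at 5 days (exact 95% interval 2.52 to 658) and 5.19 times at 10 days (2.73 to 10.7), intervals that cover counting error only. Over both ages Abca1 was called lower (log2 -2.67 ± 0.65, edgeR adjusted p = 0.00416). The macrophage and Kupffer marker sum was 15.9 to 64.2 CPM (PD-1-) and 44.8 to 47.7 CPM (PD-1+) in 5-day libraries. In 10-day libraries it was 3.89 to 3.90 CPM (PD-1-, with 7 of 11 markers at 0) and 37.3 to 40.6 CPM (PD-1+), and its part in the Abca1 counts was not tested.

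Stard4, which carries cholesterol between membranes within the cell and is an SREBP target, was at 46.0 and 47.1 CPM in the PD-1- libraries and 82.9 and 84.5 CPM in the PD-1+ libraries of 5-day mice, and at 41.1 and 68.9 CPM (PD-1-) and 81.6 and 71.3 CPM (PD-1+) in 10-day mice. The libraries of the populations did not overlap, though PD-1- replicate 2 at 10 days came close to the PD-1+ range. The fold was 1.59 (log2 0.67 ± 0.19, edgeR adjusted p = 0.00981). Without both male 5-day libraries the adjusted p was 0.0535, and it ranged from 0.00159 to that value over the alternatives.

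In fatty acid synthesis, 3 of 7 genes were lower and 0 higher over both ages (0 higher with DESeq2 also, and 1, Acaca, at an unadjusted p below 0.05). That is 42.9% of them, where 41.4% of all genes were called, 21.9% higher and 19.6% lower. Elovl6 (chr3:129532355-129638495, + strand), which elongates palmitate to stearate, was at 62.5 and 42.6 CPM in the PD-1- libraries and 14.4 and 27.2 CPM in the PD-1+ libraries of 5-day mice, and at 43.1 and 39.0 CPM (PD-1-) and 8.90 and 8.79 CPM (PD-1+) in 10-day mice. No PD-1+ library reached the PD-1- range, and the lowest values were those of PD-1+ cells at 10 days. Over both ages it was 3.36-fold lower (log2 -1.75 ± 0.27, edgeR adjusted p = 1.25e-04).

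Elovl5 (chr9:77917364-77984519, + strand), which elongates polyunsaturated fatty acids, had by length the highest level of the 33 genes in PD-1- cells. It was at 318 and 337 CPM in the PD-1- libraries and 229 and 259.7 CPM in the PD-1+ libraries of 5-day mice, and at 244 and 253 CPM (PD-1-) and 146 and 151 CPM (PD-1+) in 10-day mice. At each age PD-1+ libraries were below PD-1- ones, while the 5-day PD-1+ values overlapped the 10-day PD-1- values. Over both ages its log2 fold change was -0.58 ± 0.13 (edgeR adjusted p = 0.00194).

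Fasn (chr11:120805846-120824547, - strand), the fatty acid synthase, was at 142 and 166 CPM in the PD-1- libraries and 148 and 119 CPM in the PD-1+ libraries of 5-day mice, and at 182 and 163 CPM (PD-1-) and 83.7 and 67.8 CPM (PD-1+) in 10-day mice. The populations overlapped at 5 days and were well apart at 10 days. Over both ages it was 1.62-fold lower (log2 -0.70 ± 0.19, edgeR adjusted p = 0.0105), with log2 -0.20 ± 0.18 at 5 days and -1.19 ± 0.19 at 10 days. The difference between the ages, log2 -0.99 ± 0.26, had an edgeR adjusted p of 0.0602, above the threshold in this fit.

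The other 4 genes of fatty acid synthesis were not called over both ages. Acly, which supplies cytosolic acetyl-CoA to both routes and is the second most abundant member by length in PD-1- cells, was at 293 to 386 CPM in PD-1- and 314 to 440.2 CPM in PD-1+ cells (log2 0.12 ± 0.13). Acaca, the acetyl-CoA carboxylase, was at 6.80 and 6.81 CPM in the PD-1- libraries and 13.9 and 16.7 CPM in the PD-1+ libraries of 5-day mice, and at 10.7 and 14.3 CPM (PD-1-) and 16.4 and 14.8 CPM (PD-1+) in 10-day mice. It was called higher at 5 days and not at 10 (log2 1.16 ± 0.43, edgeR adjusted p = 0.0443), a call lost in 12 of 15 alternatives, and had log2 0.73 ± 0.31 over both ages (edgeR adjusted p = 0.0725). Scd2, the stearoyl-CoA desaturase of these cells, had log2 0.26 ± 0.24 and Fads1, a desaturase of polyunsaturated fatty acids, 0.47 ± 0.25. Scd1, the desaturase abundant in liver, had at most 4 counts in any PD-1- library and 0, 0, 7 and 0 in the PD-1+ libraries.

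**Figure D2:**
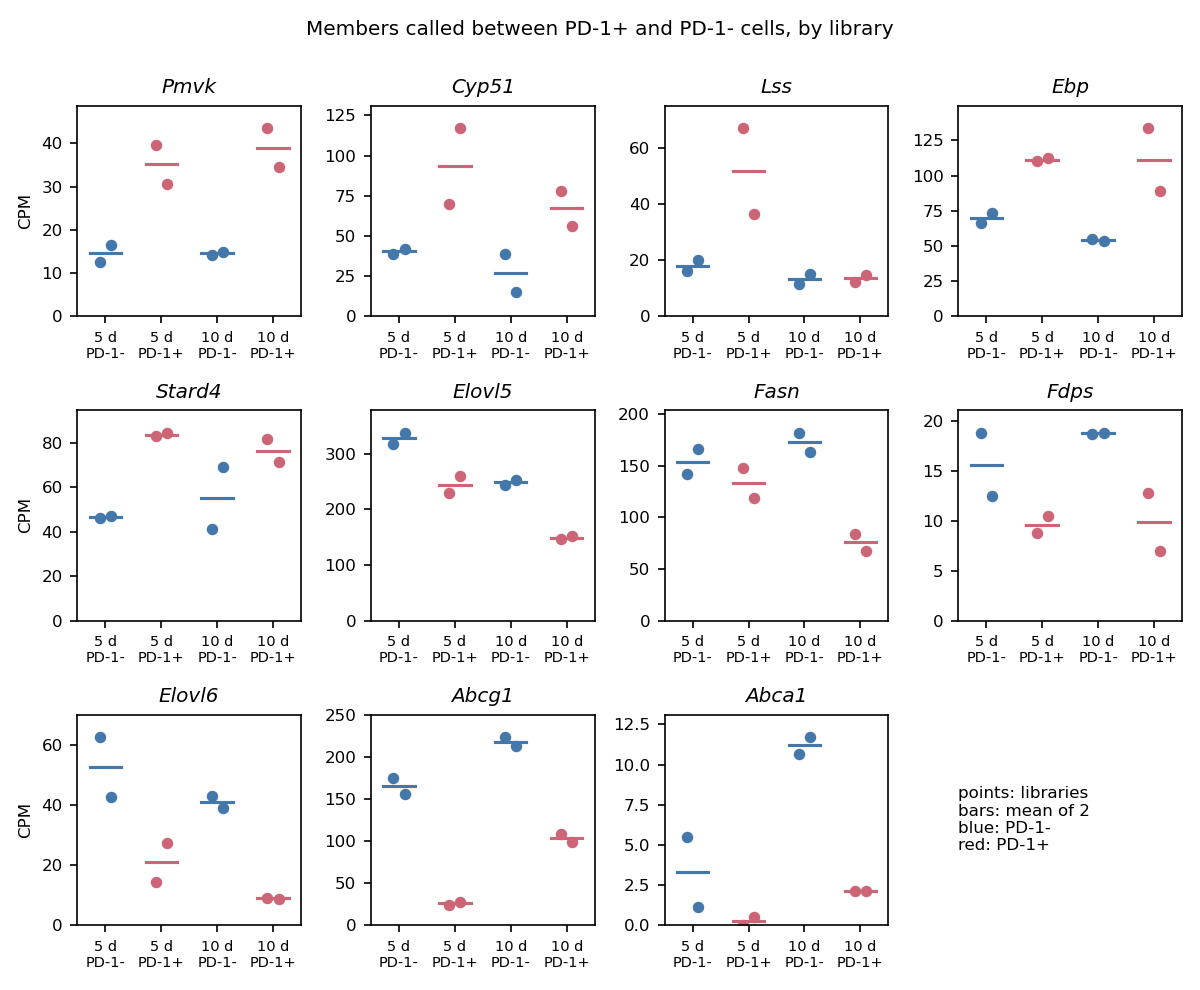
CPM (vertical axis, from 0) of the 11 members called over both ages, in each library (points) with the mean of 2 libraries (bars), for PD-1- (blue) and PD-1+ (red) cells at 5 and 10 days. Pmvk, Cyp51, Ebp and Stard4 lie higher in all PD-1+ libraries, Abcg1 and Elovl6 lower, and Lss stands out in PD-1+ cells at 5 days, at 66.9 and 36.3 CPM.

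Levels can be compared between genes per length. As mean CPM per kilobase of exon in PD-1- cells, Elovl5 (81.7), Acly (63.6), Ebp (26.9) and Abcg1 (26.3) stood highest, and Idi1 (0.966), Abca1 (0.701) and Acaca (0.565) lowest. In PD-1+ cells Acly (69.4) came before Elovl5 (55.7) and Ebp (48.2). Abcg1 fell from rank 4 to rank 16 of 33, and Pmvk rose from rank 15 to rank 5. Exon length here is the union of all annotated exons in GENCODE M21, which understates levels of genes with long unused exons.

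**Figure D3:**
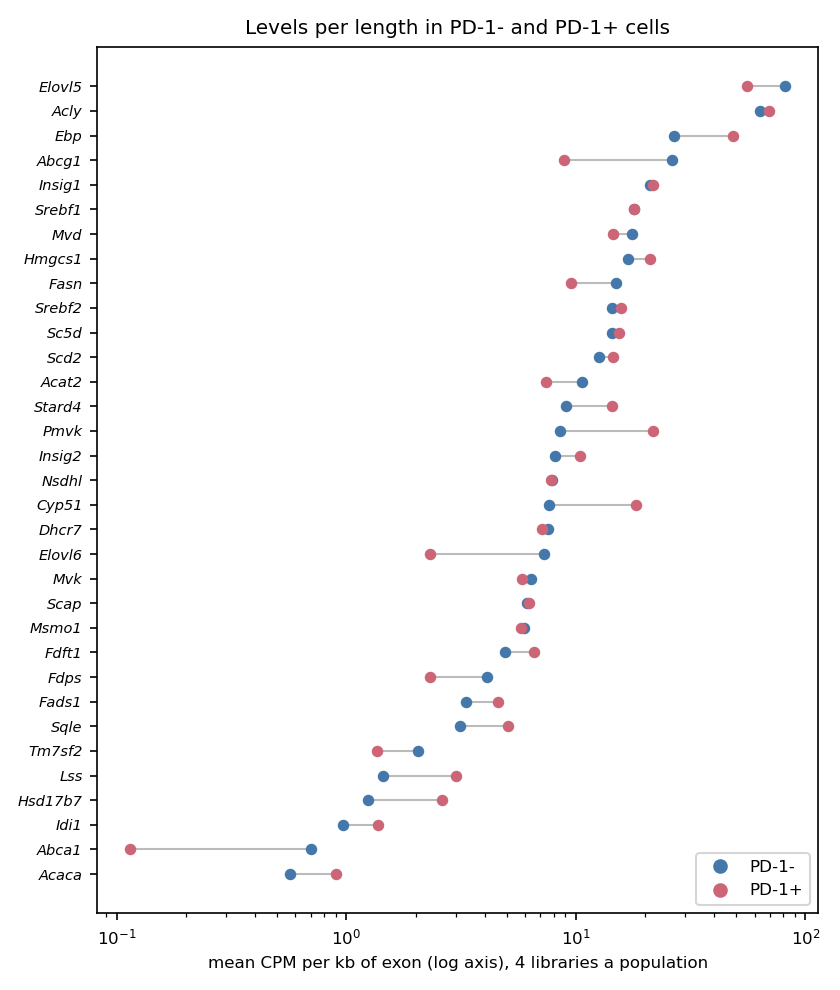
Mean CPM per kilobase of exon (log axis) of the 33 members in PD-1- (blue) and PD-1+ (red) cells, 4 libraries a population, joined by a grey line and ordered by the PD-1- level. Elovl5 leads in PD-1- cells at 81.7, and the long lines of Abcg1, Elovl6, Abca1, Pmvk and Cyp51 show where the populations differ most.

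Age by age, PD-1+ cells of 5-day mice had 7 members higher and 4 lower. Hmgcs1, Pmvk, Lss, Cyp51, Ebp, Stard4 and Acaca were higher, and Abca1, Abcg1, Elovl5 and Elovl6 lower. Among all genes 34.3% were called at 5 days, 17.6% higher and 16.7% lower, against 33.3% of the members. Fewer members were called higher, and fewer lower, without PD-1- replicate 2 or either PD-1+ library of this age. In the same fits a smaller share of all tested genes was called as well. Of the 11 genes, Abcg1 stayed called whichever library was left out, and Lss was lost without PD-1+ replicate 2 only. Where a group is left with a lone library, its spread is assumed to equal that of the other groups.

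At 10 days, 3 members were higher (Pmvk, Cyp51, Ebp) and 5 lower (Abca1, Abcg1, Fasn, Elovl5, Elovl6). That is 24.2% of the members, where 29.3% of all genes were called, 16.4% higher and 12.9% lower. Lss, Hmgcs1 and Acaca, called at 5 days, had log2 0.060 ± 0.39, -0.22 ± 0.24 and 0.34 ± 0.40 at 10 days. Stard4 had 0.50 ± 0.25 (edgeR adjusted p = 0.143). Leaving out single libraries gave 2 to 3 higher and 4 to 5 lower members at this age. Abca1 was lost without any 1 of the 10-day libraries, and Cyp51 without either 5-day PD-1- library, 10-day PD-1- replicate 2 or 10-day PD-1+ replicate 1. The other 6 calls held in each of these. At this age 3 of 5 tested macrophage and Kupffer markers, 3 of 5 T cell markers, 2 of 5 tested hepatocyte markers and 8 of 12 dividing-cell markers were called higher in PD-1+ cells. The part of these markers in the differences of the members was not tested.

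**Figure D4:**
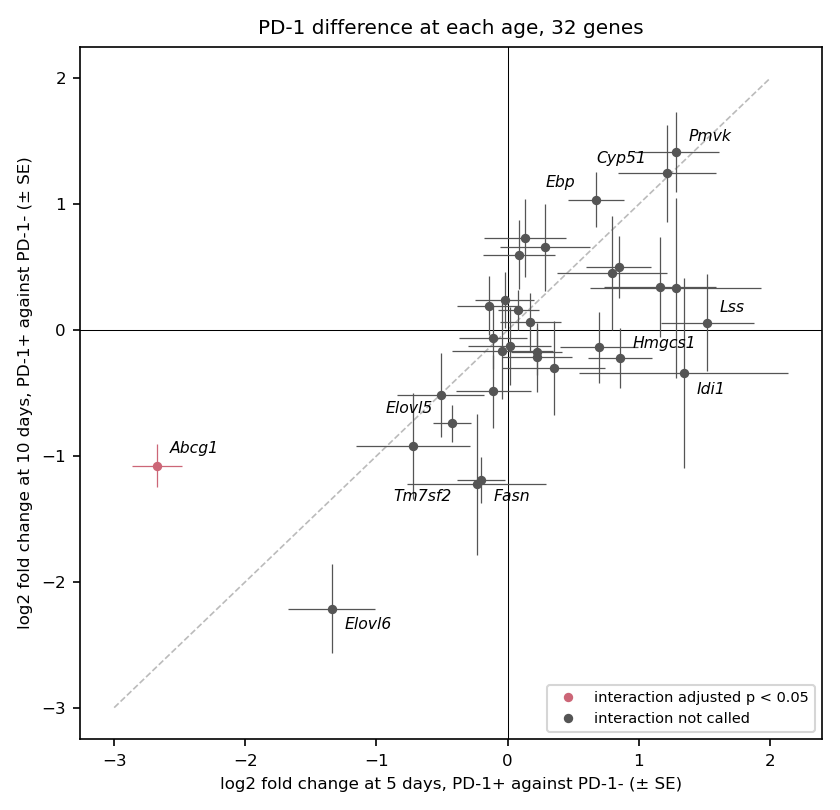
Log2 fold change (± standard error) of PD-1+ against PD-1- cells at 5 days (horizontal axis) and at 10 days (vertical axis) for 32 genes, without the sparse Abca1; the dashed line marks equal values. Abcg1 (red) lies well off the line, at -2.67 and -1.08, and Pmvk, Cyp51 and Ebp lie near it.

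Only Abcg1 passed the test of whether the PD-1 difference changed with age (interaction, 1 of 33 members, 3.03%). Over all genes 2.12% passed it, 1.2% with a higher and 0.923% with a lower value at 10 days. The Abcg1 difference was log2 -2.67 ± 0.19 at 5 days and -1.08 ± 0.17 at 10 days, and the change between them was 1.59 ± 0.25 (edgeR adjusted p = 0.00311). That call held in all 15 alternative analyses, with adjusted p from 7.58e-06 to 0.0348. None of the members passed with a lower value at 10 days in the fits without a replicate block on all 8 libraries (0 with edgeR, 0 with DESeq2). At an unadjusted edgeR p below 0.05 in that fit there were 4 members in either direction, namely Abcg1, Fasn, Hmgcs1 and Lss. With the replicate number as a block, 2 members passed with a lower value, Fasn (edgeR adjusted p = 0.0328) and Hmgcs1 (0.0437). Without 5-day PD-1- replicate 3, 1 member, Scd2, passed with a lower value at 10 days.

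In PD-1+ cells, 1 member was higher and 4 lower at 10 than at 5 days, or 15.2% of the members beside 14.4% of all genes (7.39% higher, 6.98% lower). Abcg1 was 3.99-fold higher (log2 2.00 ± 0.19, edgeR adjusted p = 5.76e-06). Lss fell by a fold of 3.82 (log2 -1.93 ± 0.36, edgeR adjusted p = 0.00181). The fatty acid genes Elovl6 (log2 -1.24 ± 0.37), Fasn (-0.81 ± 0.19) and Elovl5 (-0.72 ± 0.15) were lower too, with edgeR adjusted p of 0.0346, 0.00779 and 0.00408. Abca1 went from 0 and 1 to 6 and 6 counts and was not called. Fewer members were lower without 5-day PD-1+ replicate 2 or without 10-day PD-1+ replicate 2. A smaller share of all tested genes was called in those fits as well. Elovl6 also lost its call without 5-day PD-1+ replicate 3 and without 10-day PD-1+ replicate 1. Several marker lists moved alongside. Dividing-cell markers summed to 6917 to 7081 CPM in 5-day and 4198 to 4620 CPM in 10-day PD-1+ libraries, with 8 of 12 called lower. T cell markers went from 2485 to 2600.4 CPM at 5 days to 3797 to 4435 CPM at 10 days (3 of 5 called higher), and CD8 markers from 6.18 to 6.68 CPM to 21.1 to 27.4 CPM (1 of 2 called higher). Their part in the age differences was not tested.

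In PD-1- cells the age comparison gave 0 members higher and 0 lower by edgeR and by DESeq2 and 5 at an unadjusted p below 0.05 (Srebf1, Abca1, Abcg1, Scd2 and Elovl5). Of all genes 0.27% were called there, 0.148% higher and 0.122% lower, so this comparison gave few calls for any genes. Without 5-day PD-1- replicate 3 there was 1 higher member, Scd2. Whether age acted differently in the 2 populations is the interaction above, which Abcg1 passed and Lss, Fasn, Elovl5 and Elovl6 did not. Abcg1 had log2 0.40 ± 0.17, Elovl5 -0.40 ± 0.15 and Srebf1 0.55 ± 0.19. Across both populations, 0 members were higher at 10 days by edgeR (1, Abcg1, by DESeq2, and 3, Abca1, Abcg1 and Srebf1, at an unadjusted p below 0.05) and 2 were lower. These were Lss (log2 -1.26 ± 0.33, edgeR adjusted p = 0.0427) and Elovl5 (-0.56 ± 0.13, edgeR adjusted p = 0.0238), or 6.06% of the members beside 4.87% of all genes, 2.3% higher and 2.58% lower. Without any 1 of the 4 PD-1+ libraries, and without both male libraries, neither was called, and without 10-day PD-1- replicate 1 Elovl5 was not. In each of these fits a smaller share of all tested genes was called than in the main fit. The higher count was 2 (Abca1 and Abcg1) without 5-day PD-1- replicate 2 and 1 (Abcg1) without 10-day PD-1- replicate 2. Since the male libraries were all at 5 days, the age comparisons without them rest on 1 library in each 5-day group.

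Genes around the pathway were read from lists written down with earlier results of these data known, and for each list the up to 4 genes with the smallest p over both ages are named. Over both ages, 4 of 13 tested genes that activate or extend fatty acids had more RNA in PD-1+ cells and 1 had less (38.5%, beside 41.4% of all genes). Acss2, the cytosolic acetyl-CoA synthetase that uses acetate, was at 135 to 194 CPM in PD-1- and 19.0 to 39.6 CPM in PD-1+ cells (log2 -2.38 ± 0.21, edgeR adjusted p = 9.10e-07). Mid1ip1, an activator of acetyl-CoA carboxylase, was at 3.89 to 9.76 and 34.5 to 42.5 CPM (log2 2.48 ± 0.28, edgeR adjusted p = 5.91e-06). Elovl1, the elongase of very long chains, had log2 1.17 ± 0.15, opposite in sign to Elovl5 and Elovl6. Acsl5, an acyl-CoA synthetase, had 0.77 ± 0.12. In each of these 4 the PD-1+ libraries lay wholly on 1 side of the PD-1- ones.

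Among 8 glycerolipid genes, 2 were higher and 1 lower (37.5%, beside 41.4% of all genes). Dgat1, which makes triglyceride, was at 27.2 to 34.6 CPM in PD-1- and 115 to 210.5 CPM in PD-1+ cells (log2 2.33 ± 0.17, edgeR adjusted p = 1.02e-07). Agpat3 had log2 0.47 ± 0.15 and Lpin1, a phosphatidate phosphatase, -0.65 ± 0.21, and both calls were lost with some single libraries left out. For Agpat3 these were 5-day PD-1- replicate 3, either 10-day PD-1- library and 10-day PD-1+ replicate 1. For Lpin1 they were 5-day PD-1- replicate 2 and either 5-day PD-1+ library. Agpat5 had 0.33 ± 0.24 and was not called.

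Of 7 genes that process or degrade SREBP and its partners, 2 were lower, where 19.6% of all genes were lower. Mbtps1, the protease that makes the first cut in SREBP, was at 139.8 to 186 CPM in PD-1- and 85.9 to 106 CPM in PD-1+ cells (log2 -0.73 ± 0.14, edgeR adjusted p = 6.62e-04). Rnf145, a sterol-responsive ubiquitin ligase, was at 198 to 304 and 70.5 to 135 CPM (log2 -1.24 ± 0.19, edgeR adjusted p = 1.31e-04). Rnf139, another ligase of the endoplasmic reticulum, had log2 -0.44 ± 0.22 and was not called.

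The isoprenoid branches, which draw on farnesyl diphosphate, had 2 genes lower of 8 and no others called by edgeR. That is 25%, beside 41.4% of all genes. Pdss2, for the tail of coenzyme Q, had log2 -1.12 ± 0.35 and Fntb, the farnesyltransferase subunit, -0.87 ± 0.33. The Pdss2 call was lost without replicate 2 of the PD-1- cells at either age or replicate 1 of the 10-day PD-1+ cells. The Fntb call was lost without any 1 of the 10-day libraries, 5-day PD-1- replicate 2 or 5-day PD-1+ replicate 3. Dhdds (0.62 ± 0.29), which passed an unadjusted p of 0.05 only, and Ggps1 (-0.28 ± 0.17) were not called.

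Of 11 other sterol-handling genes, 1 was higher and 3 lower (36.4%, beside 41.4% of all genes). Mylip, a ligase that removes lipoprotein receptors, was at 148 to 294 CPM in PD-1- and 45.8 to 114 CPM in PD-1+ cells (log2 -1.51 ± 0.13, edgeR adjusted p = 5.84e-07). Npc2, which hands cholesterol out of lysosomes, was at 721 to 914 and 255 to 500.0 CPM (log2 -1.33 ± 0.19, edgeR adjusted p = 1.25e-04), and its partner Npc1 had -0.62 ± 0.22, a call lost without replicate 2 of either 5-day population, either 10-day PD-1- library or 10-day PD-1+ replicate 1. Soat1, which esterifies cholesterol for storage, was the higher one (log2 0.78 ± 0.18, edgeR adjusted p = 0.00259).

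Fatty acid oxidation, the opposite process, had 7 genes higher and 3 lower of 15 (66.7%, beside 41.4% of all genes). The higher ones were Acadl, Decr1, Etfb, Cpt2, Eci1, Slc25a20 and Etfa and the lower ones Acadm, Acaa2 and Hadhb, named in full after their values were seen. Acadl, the long-chain dehydrogenase, was at 30.1 to 54.6 CPM in PD-1- and 147 to 196 CPM in PD-1+ cells (log2 1.88 ± 0.17, edgeR adjusted p = 7.16e-07). Acadm, the medium-chain dehydrogenase, was at 72.3 to 91.1 and 25.6 to 34.1 CPM (log2 -1.51 ± 0.17, edgeR adjusted p = 8.17e-06). Etfb, an electron carrier, had 1.72 ± 0.23 and Acaa2, a thiolase, -1.05 ± 0.14. Enzymes of 1 process again moved in both directions.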

How the data were processed

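RNA of 1000 sorted cells per library was primed with oligo(dT), made into Nextera XT libraries and sequenced as paired 25-base reads, per the labels' protocols. The authors deposited raw counts per gene symbol. Reads were aligned with STAR 2.5.4 to mm10 and assigned with featureCounts, per the submitters' processing notes. Not given in the sources used here: the annotation, the strand setting, the handling of reads with several matches. Every column of the table matched a sample (0 columns without a sample).

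From these counts, edgeR 4.0.16 (R 4.3.3, limma 3.58.1) tested symbols that passed filterByExpr (minimum count 10). It used TMM factors and robust quasi-likelihood F tests on all 8 libraries. Differences within an age or a population, and the interaction, were tested on 4 group means. P-values were adjusted by Benjamini-Hochberg over 11490 symbols. A gene was called at an adjusted p below 0.05. Each standard error was taken from the size of the log2 value over the root of its F statistic. CPM used library size and TMM factor. The PD-1 difference over both ages came from a separate fit without an interaction, in which the PD-1 effect was held the same at both ages. The age difference over both populations was taken from that fit too, with the age effect held the same in both populations. These values therefore need not equal the mean of the separate differences. The script was tested on simulated data. Alternatives were RLE and upper-quartile scaling, other filters, DESeq2 1.42.0, the replicate number as a block, and leaving out each library or both male ones.

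The members and gene lists were chosen with earlier results of these data known. Values per library and full statistics are given for members called over both ages or in the interaction, briefer ones for the rest, and, of each related list, for the up to 4 genes with the smallest p over both ages. A gene of these lists is not reported here. Gene positions and exon lengths are from GENCODE M21 (mm10) and promoter windows from RefSeq on GRCm38.p6, the same assembly. Replicates of a group differed by more than counting noise (chi-square per degree of freedom 3.86 to 8.90), so none was a duplicate.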

Additional observations from a re-analysis of the deposited data

Results flagged for a closer look

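For 3 genes the difference between PD-1+ and PD-1- cells was itself different at the 2 ages, by the interaction test in edgeR with Benjamini-Hochberg adjustment. They were 1 of 33 members, 1 of 11 other sterol-handling genes and 1 of 15 genes of fatty acid oxidation. The other related lists had none, and 2.12% of all tested genes passed. Abcg1, the cholesterol exporter, had a log2 difference of -2.67 ± 0.19 at 5 days and -1.08 ± 0.17 at 10 days, a change of 1.595 (adjusted p = 0.00311). Npc2, the lysosomal cholesterol carrier, had -1.82 ± 0.17 at 5 days and -0.84 ± 0.16 at 10 days, a change of 0.97 (adjusted p = 0.0346), with 912 and 914 CPM in the PD-1- libraries and 264 and 255 CPM in the PD-1+ libraries of 5-day mice and 721 and 799 CPM (PD-1-) and 500.0 and 347 CPM (PD-1+) in 10-day mice. That call was lost in 8 of 15 alternatives, with adjusted p from 4.35e-04 to 0.177, among them the removal of any single library other than 10-day PD-1+ replicate 2. Hadh, a dehydrogenase of fatty acid oxidation, had 0.79 ± 0.18 at 5 days and -0.54 ± 0.18 at 10 days, a change of -1.33 (adjusted p = 0.0128). It was at 130.3 and 122 CPM in the PD-1- libraries and 231 and 206 CPM in the PD-1+ libraries of 5-day mice and at 182 and 182 CPM (PD-1-) and 103 and 148 CPM (PD-1+) in 10-day mice. The 10-day difference was not called in 6 of 15 alternatives, the DESeq2 test among them, and was -0.29 without 10-day PD-1+ replicate 1. It was also lost without either 10-day PD-1- library and without 5-day PD-1+ replicate 2. The interaction call was lost without 5-day PD-1+ replicate 2 and without 10-day PD-1- replicate 1.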

How the results depend on the processing

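Over 117 gene results and up to 15 alternatives each, 1516 of 1729 values kept their direction and side of the threshold, 170 lost a call, 16 gained one and 27 changed sign. Pmvk, Cyp51, Ebp, Abca1, Abcg1, Fasn, Elovl5 and Elovl6 were called over both ages in all 15. The sign changes were all of genes not called. Upper-quartile scaling moved the median of all genes to -0.0968 over both ages and -0.113 at 5 days and gave Nsdhl -0.079, Srebf1 -0.064, Scap -0.077, Insig1 -0.057 and, at 10 days, Lss -0.033. Leaving out single libraries gave Mvk -0.23 to 0.055, Msmo1 -0.17 to 0.14, Nsdhl -0.24 to 0.19, Srebf1 -0.080 to 0.081, Srebf2 -0.031 to 0.28, Scap -0.13 to 0.15, Insig1 -0.10 to 0.13 and, at 10 days, Lss -0.15 to 0.25. Without both 5-day libraries numbered 3, the male ones, Idi1 was -0.16, Srebf1 -0.13, Scap -0.10 and Fasn at 5 days 0.086. Without them 3 members were higher over both ages, 4 higher at 5 days, 0 lower with age over both populations, 2 lower with age in PD-1+ cells and 1 higher in PD-1- cells. Leaving out single libraries gave 1 to 7 higher and 1 to 4 lower at 5 days, 0 to 2 higher and 0 to 3 lower with age over both populations, 0 to 1 higher in PD-1- cells, 2 to 5 lower in PD-1+ cells, and 0 to 1 lower in the interaction. DESeq2 called 2 lower at 5 days, where it called 28.9% of all tested genes beside 34.3% in the main fit. In the 5-day comparison, each fit without a 5-day library also called a smaller share of all tested genes. RLE and upper-quartile scaling, no filter and DESeq2 each called 1 member, Abcg1, higher with age over both populations. The shorter sterol element was found in 3 members. Libraries of an age share replicate numbers between populations, and the labels do not say what a number marks. Same-numbered 5-day libraries had the same sex, and deviations of same-numbered libraries correlated at 0.0938 at 5 days and 0.114 at 10 days. With 2 libraries a group and no reference value, these correlations cannot decide whether the numbers mark pairs. A pairing was not assumed in the main tests because the labels do not give it. With the replicate block, 2 members passed the interaction with a lower value at 10 days, Fasn (edgeR adjusted p = 0.0328) and Hmgcs1 (0.0437), Lss and Fdps were not called over both ages and Sqle was. The block could not be fitted to the age comparisons, whose groups share 1 number. The cause of these changes was not tested. With 2 libraries a group and few counts, Abca1, Idi1 and Hsd17b7 are the least precise members.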

Other observations

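Some genes of the neighbouring lists changed with age, and they are named here because of their values. Mylip, a ligase that removes lipoprotein receptors, was higher at 10 than at 5 days in both PD-1- (log2 0.94 ± 0.17, edgeR adjusted p = 0.0214) and PD-1+ cells (1.05 ± 0.18, edgeR adjusted p = 9.37e-04). The call in PD-1- cells was lost in 4 of 14 alternatives, without 5-day PD-1- replicate 2, either 10-day PD-1- library or both male libraries. Its values were 152 and 148 CPM in the PD-1- libraries and 45.8 and 54.9 CPM in the PD-1+ libraries of 5-day mice, and 294 and 280.3 CPM (PD-1-) and 114 and 95.2 CPM (PD-1+) in 10-day mice. Nr1h2, which encodes an LXR receptor, was called higher at 10 days in PD-1+ cells (log2 0.68 ± 0.21, edgeR adjusted p = 0.0415), a call lost in 5 of 14 alternatives, the DESeq2 test among them. Lpin1, the phosphatidate phosphatase, was higher at 10 days in PD-1+ cells (log2 1.19 ± 0.26, edgeR adjusted p = 0.00606).

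Lbr, the nuclear envelope protein that also reduces sterols, was lower at 10 days in PD-1+ cells (log2 -0.75 ± 0.14, edgeR adjusted p = 0.00142), at 987 and 1119 CPM at 5 days and 623 and 627 CPM at 10 days. Agpat5 (log2 -0.97 ± 0.28) and Fntb (-1.47 ± 0.39) were lower there too, with edgeR adjusted p of 0.0289 and 0.0184. The Fntb call was lost without 5-day PD-1+ replicate 2 and without 10-day PD-1+ replicate 1, and those of Agpat5 and Nr1h2 without these 2 or 5-day PD-1+ replicate 3. That of Lpin1 was lost without 5-day PD-1+ replicate 2.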
